A study of Homo sapiens with 4 samples.

Results

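MicroRNAs (miRNAs) are named in order of discovery, so that names numbered from 3000 to below 5000 belong to entries found late, mostly by deep sequencing and not by cloning. The miRNAs described here are the human names of that range, not ending in *, that had 10 or more raw counts in at least 1 of 4 small RNA libraries. This rule kept 110 members of 762 late-numbered names in the deposited tables, which list 1733 miRNA names in all, of which 547 reached 10 counts in some library. The members were thus selected on their counts in these same libraries, so their presence and abundance are a description and were not tested.

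The libraries were made from 4 cultures, with 1 library per condition and no replicates. Hep3B and Huh7 are established human hepatoma lines and stand for hepatocellular carcinoma (HCC) cells, with no treatment named in the labels. Hep3B-C and Huh7-C are the hepatic cancer stem cells (HCSCs) enriched from each of them by culture, so each is a model of a stem-like state within 1 hepatoma line, and not a tumor sample. The study asked which miRNAs differ between HCSCs and the HCC cells they came from, in each line.

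A miRNA is cut from a hairpin precursor, whose left and right arms give the 5p and 3p products, of which a single arm is usually the abundant one. Bases 2 to 8 of the mature strand, the seed, pair with target transcripts, so miRNAs that share a seed are expected to share many predicted targets. Many late-numbered hairpins lie in introns or exons of other genes. Some were later traced to fragments of other RNA classes, and their low abundance makes them sensitive to depth.

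The mature sequences of the members on which the results turned are given 5′ to 3′ as RNA, from RefSeq on GRCh38.p14, with the seed in capitals. Of the 110 members, 92 (83.6%) matched a RefSeq mature sequence by exact name. The first lines hold members of high mean TPM, of which hsa-miR-3158-3p was higher in the Huh7 cultures. Then come members read almost only in Hep3B or only in Huh7 cultures, and last members that differed between HCSCs and HCC cells.
hsa-miR-3691-5p: aGUGGAUGauggagacucgguac
hsa-miR-4746-5p: cCGGUCCCaggagaaccugcaga
hsa-miR-3158-3p: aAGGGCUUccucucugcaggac
hsa-miR-3131: uCGAGGACugguggaagggccuu
hsa-miR-4745-5p: uGAGUGGGgcucccgggacggcg
hsa-miR-3660: aCUGACAGgagagcauuuuga
hsa-miR-3144-3p: aUAUACCUguucggucucuuua
hsa-miR-3138: uGUGGACAgugagguagagggagu
hsa-miR-4521: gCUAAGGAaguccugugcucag
hsa-miR-4788: uUACGGACcagcuaagggaggc
hsa-miR-4449: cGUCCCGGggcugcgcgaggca
hsa-miR-3689a-5p: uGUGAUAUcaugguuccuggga
hsa-miR-3689e: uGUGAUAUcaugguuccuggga
hsa-miR-3689f: uGUGAUAUcgugcuuccuggga
The 3689a-5p and 3689e sequences were the same at all 22 bases, whereas 3689f differed from 3689a-5p by A10G and G13C, counted from 1 at the 5′ end of 3689a-5p, outside the seed. No mature sequence was matched for hsa-miR-3934, hsa-miR-3928, hsa-miR-3647-3p, hsa-miR-4461 and hsa-miR-3653.

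Each member was a rare species. Members summed to 2988 and 8539 counts in Hep3B and Hep3B-C, and to 3737 and 4596 in Huh7 and Huh7-C. Total miRNA counts ranged from 1739278 in Hep3B to 5741567 in Huh7, so members took 0.172% of miRNA counts in Hep3B (95% Clopper-Pearson interval 0.166 to 0.178) and 0.157% in Hep3B-C (0.154 to 0.161). In Huh7 they took 0.0651% (0.0630 to 0.0672), and in Huh7-C 0.114% (0.110 to 0.117). The share of miRNA counts was lowest in Huh7, and no interval overlapped another. As a share of total reads it was lowest in Hep3B. The members were selected on these same counts, so the gaps between libraries are a description and were not tested. All intervals here cover counting error only, because reads without molecular identifiers are not independent molecules.

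Only 1 member exceeded 1000 counts in any library, and 26 reached 100. The highest count was 10 to 19 for 31 members, 20 to 49 for 34 and 50 to 99 for 19. A count was present in all 4 libraries for 80 members, but only 30 had 10 or more counts in all 4. For 29 members a single library carried them over the minimum, which was Hep3B-C for 17, Huh7 for 8, Huh7-C for 4 and Hep3B for 0. For these, a fold toward that library was favored by the rule and is a description only. At the threshold, 3 members had a highest count of 10, among them hsa-miR-4707-5p (1, 0, 10 and 8 counts in Hep3B, Hep3B-C, Huh7 and Huh7-C) and hsa-miR-4740-5p (3, 10, 0 and 0). Just outside it, 7 names had a highest count of 9, such as hsa-miR-3199 (2, 9, 5 and 8 counts) and hsa-miR-4286 (9, 2, 6 and 1).

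The late-numbered names were detected at this level less often than earlier ones. Of 762 late-numbered names 14.4% had 10 or more counts, against 48.9% of 610 names numbered below 1000, 23.1% of 156 numbered from 1000 to below 3000 and 49% of 194 names ending in *. Among names past that minimum, the median highest count was 33.5 for the members, 251.5 for names below 1000, 82 for those from 1000 to below 3000 and 90 for names ending in *. These are shares and medians of names in 4 libraries, given without a test.

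**Figure D1:**
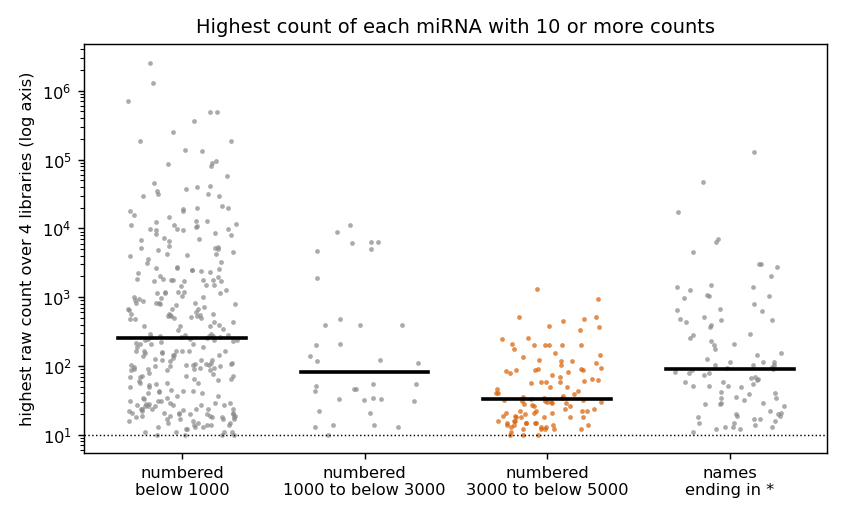
Highest raw count over the 4 libraries (log axis) of each miRNA with 10 or more counts, by the number in its name. Each point is 1 miRNA, the black bars are medians and the dotted line is the minimum of 10 counts. The median of the names numbered from 3000 (33.5 counts, orange) lies below those of the other classes, and the most abundant of them reached 1311 counts.

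The libraries differed in how much of their reads were miRNA, which bears on every fold-change here. MiRNA counts made up 10.4% of the total reads in Hep3B but 35.2% in Hep3B-C, and 54.1% in Huh7 but 37.8% in Huh7-C. Levels are given as TPM in the sense of the study, that is counts per 1000000 total reads with no division by length, and 1 read equalled 0.0596 and 0.0648 TPM in the Hep3B and Hep3B-C libraries and 0.0941 and 0.0933 TPM in those of Huh7 and Huh7-C. With total reads as library sizes, the median log2 fold-change over all miRNAs with a fold was 1.41 for Hep3B-C over Hep3B and −0.66 for Huh7-C over Huh7. With total miRNA counts in their place these medians were −0.36 and −0.15. A member was therefore also checked with total miRNA counts, TMM and DESeq2 size factors, and calls that held under all 4 scalings are named as such. A scaling moves every fold of a comparison alike, so such a call is one that held under the least favorable of the 4. The hepatocyte miRNA hsa-miR-122 had 397 counts in Hep3B and 144814 to 489443 in the other libraries, and the liver and gut epithelial hsa-miR-192 had 179088 to 706923 in all 4. Of 7 markers of other cell types, hsa-miR-144, hsa-miR-223, hsa-miR-124 and hsa-miR-133a were at 0 or 1 count in every library. The erythroid hsa-miR-451 had 773 counts in Huh7 against 1, 1 and 2 in Hep3B, Hep3B-C and Huh7-C, hsa-miR-142-3p had 0 to 20 and hsa-miR-1 had 4 to 44. Their part in the results was not tested.

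Of the 10 members with the highest mean TPM, 9 had 10 or more counts in all 4 libraries. hsa-miR-3691-5p, read from an intron of LYRM4 (chr6:5148286-5148308, minus strand), had 19.1 TPM in Hep3B and 84.9 in Hep3B-C, against 14.6 and 16.1 in Huh7 and Huh7-C. Its level was highest in Hep3B-C and nearly level between the Huh7 cultures. hsa-miR-3934 had 22.2, 61.5, 31.4 and 13.8 TPM in the same order. hsa-miR-3928 had 10.6, 33.0, 38.1 and 46.2 TPM, and hsa-miR-4746-5p (chr19:4445987-4446009, plus strand, in no other gene on that strand) had 12.8, 29.5, 12.2 and 18.3 TPM. In TPM, Hep3B was thus the lowest library for hsa-miR-3928 but not for the other 3, while on total miRNA counts hsa-miR-3928 had a log2 fold-change of −0.54 for Huh7 over Hep3B. hsa-miR-4677-3p, in an intron of SDCCAG8, ran from 7.21 TPM in Hep3B to 19.3 in Huh7, but this order depended on the scaling, since its log2 fold-change for Huh7 over Hep3B was 1.42 on total reads, −0.96 on total miRNA counts and −0.04 with TMM. hsa-miR-3662, in an intron of HBS1L, ran from 2.98 TPM in Hep3B to 16.7 in Huh7. Its log2 fold-change for Huh7 over Hep3B also depended on the scaling, at 2.48 on total reads, 0.10 on total miRNA counts and 1.02 with TMM. The 10 most abundant members in a library took between 54.2% (Huh7) and 60.3% (Hep3B-C) of its member counts.

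**Figure D2:**
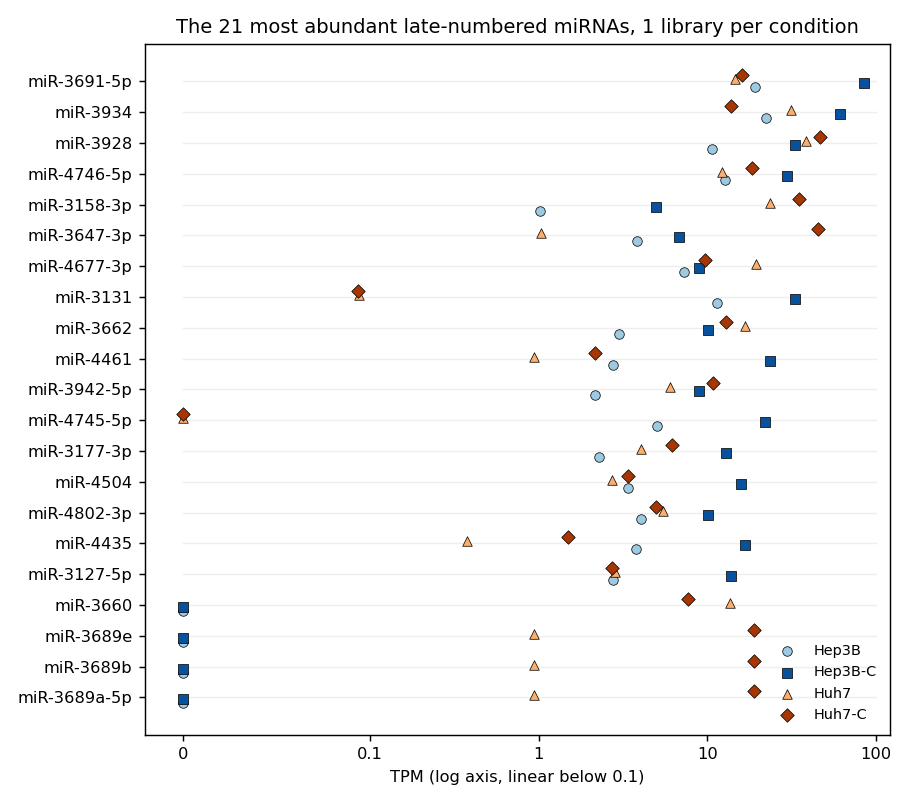
Level in TPM (counts per 1000000 total reads, log axis that is linear below 0.1) of the 21 members with the highest mean over 4 libraries. Each symbol is 1 library. hsa-miR-3691-5p heads the list with 84.9 TPM in Hep3B-C, whereas hsa-miR-4745-5p is at 0 in both Huh7 cultures and hsa-miR-3660 and 3689a-5p, 3689b and 3689e are at 0 in both Hep3B cultures.

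Most members were higher in Hep3B-C than in Hep3B on total reads, and so were miRNAs in general. A fold could be given for 95 of 110 members, since 15 had 3 or fewer counts in both libraries. A member was called when it was past 2-fold and its 95% counting interval lay off 0. On total reads, 67 members were higher in Hep3B-C and 3 lower, where 61.2% of all 503 miRNAs with a fold were higher and 4.17% lower. The median log2 fold-change was 1.64 over the members and 1.41 over all miRNAs, with 54 members above that overall median and 41 below it. With total miRNA counts as library sizes, 8 members were higher and 13 lower, where 12.7% and 23.5% of all miRNAs were. With TMM these were 18 and 9 (19.3% and 16.5% of all) and with DESeq2 size factors 25 and 7 (23.1% and 13.1%). At an assumed biological coefficient of variation of 0.4, a spread between cultures was added to the counting error. The exact test of edgeR then called 3 higher and 0 lower (6.96% and 0% of all at an adjusted p of 0.01). The 3 were hsa-miR-3591-5p, hsa-miR-3940-5p and hsa-miR-4521, of which hsa-miR-3940-5p passed the count minimum only through Hep3B-C. The split of higher against lower calls therefore depended on the scaling, and the members did not stand clear of the general shift.

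Under all 4 scalings, 8 members were higher in Hep3B-C and 3 lower, against 12.7% and 4.17% of all miRNAs. Of the 8, hsa-miR-3138, hsa-miR-3648 and hsa-miR-3940-5p had 10 or more counts only in Hep3B-C. They became members through the library in which they were high, so their increases are no support for a difference. hsa-miR-4461 went from 46 counts in Hep3B to 364 in Hep3B-C (2.74 and 23.6 TPM), a log2 fold-change of 3.10 (95% counting interval 2.66 to 3.58), or 8.6-fold. It had the most counts of the 8. hsa-miR-4690-5p, in an intron of PCNX3, went from 1 count to 30, a ratio of 32.6 with a counting interval of 2.44 to 10.4 on the log2 scale. hsa-miR-3138, in an intron of WDR1, an actin-disassembly factor, went from 6 to 59 counts (0.358 and 3.82 TPM), a log2 fold-change of 3.42 (2.21 to 4.92). hsa-miR-4444 went from 10 to 73 counts, a log2 fold-change of 2.99 (2.03 to 4.11). At 1 of its 2 loci it lies in an exon of HNRNPA3, an RNA-binding protein gene, so its 18-base sequence stands whole in spliced HNRNPA3 transcripts. For 3 others no read was found in Hep3B, and a floor of 3 counts per library was used. hsa-miR-3940-5p (0 and 37 counts) was at least 13.4-fold higher in Hep3B-C, hsa-miR-3591-5p (0 and 29) at least 10.5-fold and hsa-miR-4521 (0 and 25) at least 9.06-fold. The eighth, hsa-miR-3648, had 2 counts in Hep3B and 27 in Hep3B-C. hsa-miR-3917 was higher on total reads (4 and 28 counts, log2 fold-change 2.93), but not under every scaling.

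The members lower in Hep3B-C were few. hsa-miR-3200-3p, in an intron of the oxysterol-binding protein gene OSBP2, had 33 counts in Hep3B and 5 in Hep3B-C (1.97 and 0.324 TPM), a log2 fold-change of −2.60 (−4.32 to −1.24). hsa-miR-4788 went from 15 counts to 2, a log2 fold-change of −2.79 (−5.96 to −0.68). hsa-miR-3653 went from 109 counts to 45, a log2 fold-change of −1.16 (−1.69 to −0.64). All 3 were called under the 4 scalings, and the range over them reached −4.55 for hsa-miR-4788. Total reads gave the highest folds of the 4 in this pair, so a lower call there had to hold under the others.

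In the Huh7 pair the members were spread on both sides, whereas miRNAs in general were lower. Of 99 members with a fold, 12 were higher in Huh7-C and 12 lower on total reads, where 6.12% of all 474 miRNAs were higher and 32.5% lower. The 12 higher include 3 names with equal counts in every library (hsa-miR-3689a-5p, 3689b and 3689e), which stand for 1 measurement. The median log2 fold-change was −0.06 over the members and −0.66 over all miRNAs, and 67 members lay above that overall median and 32 below it. With total miRNA counts, 22 members were higher and 6 lower (13.7% and 19.2% of all), with medians of 0.46 over members and −0.15 over all miRNAs. With TMM there were 17 and 7 (9.7% and 23.8% of all) and with DESeq2 size factors 25 and 5 (14.8% and 18.4%). At the assumed coefficient of variation of 0.4, 4 were higher and 0 lower (1.05% and 2.11% of all). These were hsa-miR-3647-3p and the same 3 names of equal counts, hsa-miR-3689a-5p, 3689b and 3689e. The gap between the medians is the same under each scaling, since a scaling moves every fold alike. The 12 members higher on total reads were higher under all 4 scalings, and the share of all miRNAs was again 6.12%. Total reads gave the lowest folds of the 4 in this pair, so this agreement was fixed in advance and adds no support. The lower members called under all 4 scalings numbered 5, against 18.4% of all miRNAs.

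The largest increase in Huh7-C belonged to hsa-miR-3647-3p, which had 11 counts in Huh7 and 485 in Huh7-C (1.04 and 45.3 TPM). Its log2 fold-change was 5.45 (4.60 to 6.46), or 43.7-fold. In the Hep3B pair it had 64 and 104 counts and was not called. The other arm of its hairpin had 0 to 2 counts in every library.

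The hsa-miR-3689 family had a like pattern. hsa-miR-3689a-5p, 3689b and 3689e had the same counts in every library, 0 in both Hep3B cultures, 10 in Huh7 and 202 in Huh7-C. As the 3689a-5p and 3689e sequences are identical, the reads of these names cannot be told apart, and they stand for 1 measurement. Their level went from 0.941 to 18.9 TPM, a log2 fold-change of 4.32 (3.42 to 5.41), or 20-fold. hsa-miR-3689f, which carries the A10G and G13C differences, had 0, 2, 1 and 30 counts, a log2 fold-change of 4.89 in the Huh7 pair (2.31 to 10.2). It passed the count minimum only through Huh7-C. These hairpins lie within a short stretch of chromosome 9 on the minus strand (3689a-5p at chr9:134849534-134849555, 3689e at chr9:134850614-134850635 and 3689f at chr9:134850783-134850804) in no other gene on that strand. The other set with equal counts was hsa-miR-3180 and hsa-miR-3180-3p (2, 24, 9 and 8 counts), where the 19-base form starts alike with the 22-base form.

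Other members higher in Huh7-C under all 4 scalings had fewer counts. hsa-miR-4449, in an intron of the non-coding RNA gene DANCR, had 6 and 57 counts (0.565 and 5.32 TPM), a log2 fold-change of 3.24 (2.03 to 4.74). hsa-miR-3189-3p, in an intron of the stress cytokine gene GDF15, had 14 and 34 counts, a log2 fold-change of 1.27 (0.33 to 2.28). hsa-miR-4435 has 2 loci, in an exon of the long non-coding RNA gene CYTOR and in an intron of MIR4435-2HG, which its counts do not separate. It had 4 and 16 counts, a log2 fold-change of 1.99 (0.36 to 4.03). The remaining ones were hsa-miR-3607-3p (7 and 36 counts), hsa-miR-3653 (7 and 20), hsa-miR-3074-5p (5 and 21) and hsa-miR-4461 (10 and 23). Of these, hsa-miR-3074-5p passed the count minimum only through Huh7-C.

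Among the members lower in Huh7-C under all 4 scalings, hsa-miR-4521 had the most counts, with 118 counts in Huh7 and 11 in Huh7-C (11.1 and 1.03 TPM), a log2 fold-change of −3.44 (−4.48 to −2.54). Its mature sequence lies at chr17:8186948-8186969 on the plus strand, in no other gene on that strand. hsa-miR-3664-3p, in an intron of SHANK2, had 31 and 9 counts, a log2 fold-change of −1.80 (−3.05 to −0.69). hsa-miR-3163, in an intron of the pyruvate carboxylase gene PC, had 26 and 5 counts, a log2 fold-change of −2.39 (−4.13 to −0.99). hsa-miR-3909 had 13 counts and 1, and hsa-miR-4788 had 15 and 0. With 0 set to 3 counts, hsa-miR-4788 was 5.04-fold lower in Huh7-C on total reads, and its log2 counting interval ended at −1.86. These 5 held under all 4 scalings. On total reads alone, the more abundant hsa-miR-3934 (334 and 148 counts, log2 fold-change −1.19) and hsa-miR-4677-3p (205 and 103, −1.01) were also lower. hsa-miR-3944-3p, in an intron of ECHS1, a gene of fatty acid oxidation, had 18 and 5 counts and was lower in Huh7-C on total reads (log2 fold-change −1.86). Both hsa-miR-3664-3p and hsa-miR-3944-3p passed the count minimum only through Huh7.

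Across the 2 pairs, which share no library, a fold could be given in both for 84 members. On total reads 4 were higher in both HCSCs (hsa-miR-3189-3p, hsa-miR-4435, hsa-miR-4449 and hsa-miR-4461), 1 was lower in both (hsa-miR-4788) and 7 went in opposite directions. Over all 430 miRNAs with both folds, 3.49% were higher in both, 2.79% lower in both and 13.3% higher in Hep3B-C but lower in Huh7-C. Under all 4 scalings only hsa-miR-4461 was higher in both and only hsa-miR-4788 was lower in both. Over all miRNAs these counts were 7 and 7. In the Huh7 pair the log2 fold-change of hsa-miR-4461 was 1.19, with a counting interval of 0.06 to 2.42. Its agreement over scalings there was fixed in advance, as was that of hsa-miR-4788 in the Hep3B pair. At the assumed coefficient of variation of 0.4 neither was called in either pair. hsa-miR-4461 had 2.74 and 23.6 TPM in Hep3B and Hep3B-C and 0.941 and 2.15 TPM in Huh7 and Huh7-C, which puts its HCSC level in the Huh7 pair below its HCC level in the Hep3B pair. hsa-miR-4788 had 0.894, 0.13, 1.41 and 0 TPM in the 4 libraries, in the order Hep3B, Hep3B-C, Huh7, Huh7-C, so that both HCC cultures had 15 counts and both HCSC cultures had 2 or fewer. The locus of hsa-miR-4788 lies in an exon of the processed pseudogene HMGB3P13, and its sequence also stands whole in HMGB3P32, another processed pseudogene.

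hsa-miR-4521 and hsa-miR-3653 differed in direction between the pairs under all 4 scalings. Over all miRNAs, 11 were higher in Hep3B-C and lower in Huh7-C under all 4, and 1 was the reverse. hsa-miR-4521 had 0 counts in Hep3B but 25 in Hep3B-C, and 118 in Huh7 but 11 in Huh7-C. It was thus absent from the counts of the HCC culture in the Hep3B line, where 3 counts would be 0.179 TPM, and most abundant in the HCC culture in the Huh7 line. hsa-miR-3653 had 109, 45, 7 and 20 counts in the same order. For the other 5 members with opposite calls on total reads (hsa-miR-3145-3p, hsa-miR-3163, hsa-miR-3909, hsa-miR-3934 and hsa-miR-4511), at least 1 of the calls was lost under another scaling.

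**Figure D3:**
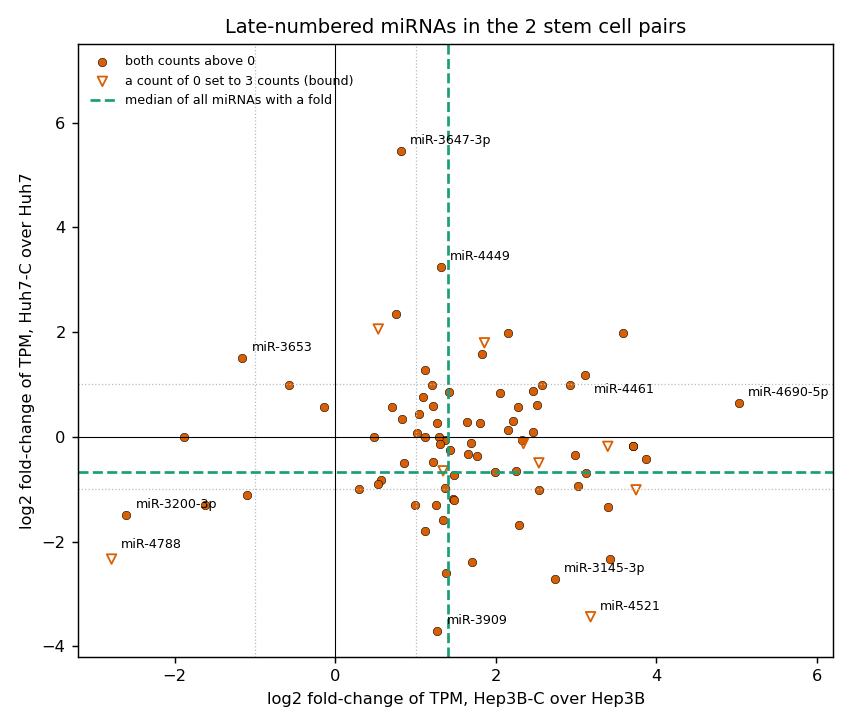
Log2 fold-change of TPM (total reads as library sizes) of the members with a fold in both stem cell pairs, Hep3B-C over Hep3B on the x axis and Huh7-C over Huh7 on the y axis. Each symbol is 1 member, open triangles rest on a count of 0 set to 3 counts, dotted lines mark 2-fold and dashed green lines mark the medians of all miRNAs (1.41 and −0.66). hsa-miR-4461 lies in the upper right, hsa-miR-4788 in the lower left, hsa-miR-4521 in the lower right and hsa-miR-3653 in the upper left.

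With both lines fitted together and line as a block, edgeR called 0 of 81 members tested and 0% of all 443 miRNAs between HCSCs and HCC cells, at an adjusted p of 0.05. At an unadjusted p under 0.05 there were 6 members, and 7% of all miRNAs. The smallest adjusted p among members was 0.544 by the edgeR quasi-likelihood test, for 3689a-5p and its 2 identical names and for hsa-miR-4461. DESeq2 on the same model called 0 members and 1.13% of all miRNAs. The fit had 1 residual degree of freedom, and a missed threshold there does not show that the members were alike in HCSCs and HCC cells.

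The members also differed between the 2 lines, in comparisons that the study did not make its main question. Between Huh7 and Hep3B, 54 of 102 members with a fold were higher in Huh7 and 12 lower on total reads, where 54.9% of all 517 miRNAs were higher and 15.9% lower. Between Huh7-C and Hep3B-C, 29 of 109 were higher in Huh7-C and 38 lower, where 23.4% of all 535 miRNAs were higher and 41.3% lower. With total miRNA counts the first of these splits became 8 higher and 41 lower (17.4% and 46.8% of all), while the second was 29 and 41 (22.1% and 42.6%). With TMM they were 27 and 30 (30% and 32.5% of all) and 30 and 34 (26.4% and 37%), and with DESeq2 size factors 27 and 30 (30.2% and 32.5%) and 30 and 33 (26.5% and 36.4%). At the assumed coefficient of variation of 0.4, 20 members were called between the HCC cultures (22.6% of all higher and 7.74% lower) and 17 between the HCSC cultures (6.36% and 17%). Under all 4 scalings, 8 members were higher and 12 lower in Huh7 than in Hep3B (17.4% and 15.9% of all), and 29 higher and 33 lower in Huh7-C than in Hep3B-C (22.1% and 36.4%). Of these, 7 were higher in both Huh7 cultures and 7 lower in both, of 63 and 70 among all miRNAs. Among names with a fold in both comparisons, on total miRNA counts, 6.93% of members and 12.5% of all miRNAs were higher in both. On the same scaling 25.7% and 34.5% were lower in both. On total reads 24.8% and 23.6% were higher in both, and 7.92% and 14.3% lower. Such members were thus mostly less frequent than among miRNAs in general, which was not tested.

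The members with the widest gap between the lines were present in both cultures of 1 line and near 0 in the other line. hsa-miR-3131, in an intron of the hedgehog ligand gene IHH (chr2:219058725-219058747, minus strand), had 190 counts in Hep3B and 510 in Hep3B-C, but 1 in each Huh7 culture. Its log2 fold-change was −6.91 for Huh7 over Hep3B (−12.2 to −4.41) and −8.47 for Huh7-C over Hep3B-C (−13.8 to −5.98). hsa-miR-4745-5p, within an exon of PTBP1, a splicing regulator (chr19:804941-804963, plus strand), had 84, 339, 0 and 0 counts. With 0 set to 3 counts and counting error left out, it was 17.7-fold lower in Huh7 and 78.4-fold lower in Huh7-C on total reads. hsa-miR-3131 and hsa-miR-4745-5p were thus read almost only in the Hep3B cultures. hsa-miR-4435 had 63, 258, 4 and 16 counts. hsa-miR-3187-3p had 49, 80, 11 and 14 counts and hsa-miR-3175, in an intron of the chromatin remodeller gene CHD2, had 11, 40, 1 and 0.

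Other members were read mainly in the Huh7 cultures. hsa-miR-3660 (chr5:90016641-90016661, minus strand, in no other gene on that strand) had 0, 0, 145 and 82 counts. With 0 set to 3 counts, on total reads, it was 76.4-fold higher in Huh7 and 39.4-fold higher in Huh7-C than in the matching Hep3B culture. Its lowest log2 fold-changes over the 4 scalings were 3.87 and 5.20. Both arms of the hsa-miR-3144 hairpin on chromosome 6 followed this pattern, with 0, 1, 66 and 87 counts for the 5p arm and 0, 0, 17 and 21 for the 3p arm. hsa-miR-4652-5p, in an intron of GNGT1, had 0, 0, 40 and 50 counts. Each of these was at 0 or 1 count in both Hep3B cultures. hsa-miR-3158-3p, which lies in an intron of DPCD at 1 of its 2 loci, was detected in all 4 but was higher in Huh7 cultures. It had 17, 76, 251 and 376 counts, a log2 fold-change of 4.54 (3.84 to 5.35) between the HCC cultures and 2.83 (2.47 to 3.21) between the HCSC cultures. hsa-miR-3128, in an intron of NFE2L2, the gene of an oxidative stress regulator, had 2, 15, 104 and 55 counts, and hsa-miR-3176, in an intron of CAPN15, had 5, 16, 72 and 87. In all, 9 members were at 0 in both Hep3B cultures and 4 in both Huh7 cultures. Such members could pass the count minimum only through the other line, and Hep3B had the fewest miRNA counts (1739278). The same share over all miRNAs is not given, so these counts do not set the members apart. With a read value of up to 0.0941 TPM, 0 counts allow a level of up to 0.282 TPM (3 counts in Huh7).

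Between the HCSC cultures alone, hsa-miR-3138 (59 counts in Hep3B-C and 1 in Huh7-C), hsa-miR-3174 (61 and 4) and hsa-miR-3940-5p (37 and 4) were lower in Huh7-C. Of these, hsa-miR-3138 and hsa-miR-3940-5p passed the count minimum only through Hep3B-C. hsa-miR-3647-3p was lower in Huh7 than in Hep3B (11 and 64 counts), but higher in Huh7-C than in Hep3B-C (485 and 104), under all 4 scalings. It was the only member that changed sides in this way, and 2 of all miRNAs did.

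**Figure D4:**
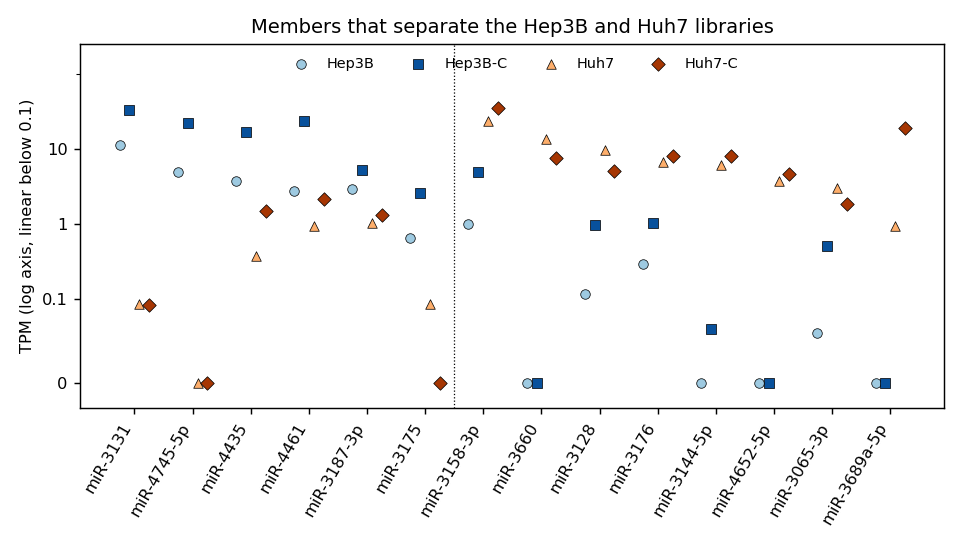
Level in TPM (log axis that is linear below 0.1) of 13 of the 14 members called the same way in both line comparisons under all 4 scalings, and of hsa-miR-3689a-5p. Each symbol is 1 library, and the dotted line separates members higher in the Hep3B cultures (left) from those higher in the Huh7 cultures (right). hsa-miR-4745-5p is at 0 TPM in both Huh7 cultures, and hsa-miR-3660, hsa-miR-4652-5p and hsa-miR-3689a-5p are at 0 TPM in both Hep3B cultures.

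Some members are the mirror image of a better known miRNA, because their hairpin is read from the opposite strand of the same DNA. The 4 such members with a better known partner are each printed above it, from RefSeq, with the bases that are complementary between them in capitals.
hsa-miR-3591-5p: UUUAGUGUGAUAAUGGCGUUuga
hsa-miR-122-3p: AACGCCAUUAUCACACUAAAua
hsa-miR-3065-5p: uCAACAAAAUCACUGAUGCUGGA
hsa-miR-338-3p: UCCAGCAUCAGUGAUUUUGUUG
hsa-miR-3065-3p: UCAGCACCAGGAUAUUGUUggag
hsa-miR-338-5p: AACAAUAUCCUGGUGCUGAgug
hsa-miR-3074-5p: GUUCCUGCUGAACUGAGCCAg
hsa-miR-24-3p: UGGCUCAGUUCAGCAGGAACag
The complementary stretch was 20 bases for hsa-miR-3591-5p, 22 for hsa-miR-3065-5p, 19 for hsa-miR-3065-3p and 20 for hsa-miR-3074-5p. hsa-miR-3591-5p lies opposite hsa-miR-122, the main hepatocyte miRNA, and had 0, 29, 18 and 16 counts. The deposited hsa-miR-122*, the less abundant arm that it mirrors, had 0, 83, 279 and 51 counts, and hsa-miR-122 itself had 397, 149892, 489443 and 144814. All of them were lowest in Hep3B. Per 1000 counts of hsa-miR-122 there were 0.193 of hsa-miR-3591-5p in Hep3B-C, against 0.0368 and 0.110 in Huh7 and Huh7-C. It did not keep a fixed ratio to hsa-miR-122 over these 3 libraries.

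The 2 arms of hsa-miR-3065 lie opposite hsa-miR-338, a miRNA known from neural tissue, on chromosome 17. hsa-miR-3065-5p had 10, 3, 39 and 16 counts and hsa-miR-3065-3p had 1, 8, 32 and 20. hsa-miR-338-3p had 26, 121, 15 and 35 counts and hsa-miR-338-5p had 24, 241, 24 and 84. Members and partner were thus not highest in the same library, as hsa-miR-3065 peaked in Huh7 and hsa-miR-338 in Hep3B-C. hsa-miR-3074-5p, opposite hsa-miR-24, had 0, 4, 5 and 21 counts, whereas hsa-miR-24 varied only from 15507 to 19542. Its hairpin lies opposite MIR24-1 alone. The deposited hsa-miR-24-1* had 4, 5, 9 and 2 counts and hsa-miR-24-2* had 14, 16, 104 and 56. The counts of hsa-miR-24 do not show which hairpin they came from, so they do not measure the locus opposite hsa-miR-3074. hsa-miR-3120, listed in advance as the opposite strand of hsa-miR-214, had 0 counts for both arms in all 4 libraries and hsa-miR-214 had 0 to 2.

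**Figure D5:**
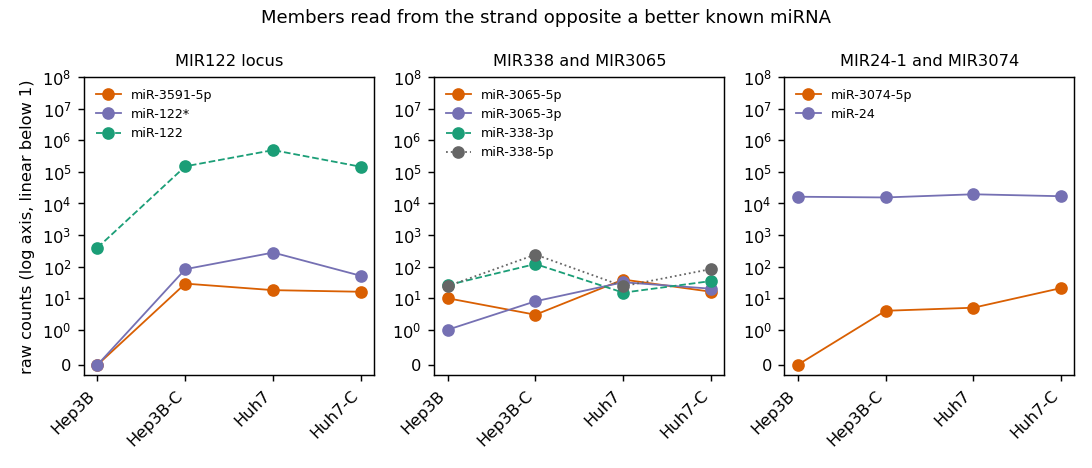
Raw counts (log axis that is linear below 1) of members read from the strand opposite hsa-miR-122, hsa-miR-338 and hsa-miR-24, with their partners, in the 4 libraries. Each point is 1 library and lines only join points of 1 miRNA. hsa-miR-122 is at 397 counts in Hep3B and hsa-miR-3591-5p at 0, while hsa-miR-24 lies between 15507 and 19542 counts in all 4.

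For 27 hairpins both arms were listed in the tables, with at least 1 arm a member, and in 5 of them both arms were members. In hsa-miR-3158 the 3p arm had 17, 76, 251 and 376 counts and the 5p arm 0, 1, 15 and 9. In hsa-miR-4677 the 3p arm had 121, 137, 205 and 103 counts and the 5p arm 7, 18, 16 and 7. In hsa-miR-3144 the 5p arm was the larger. In hsa-miR-3065 the 5p arm led in Hep3B and Huh7 and the 3p arm in Hep3B-C and Huh7-C.

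A fixed list held entries known to overlap other RNA classes, and 5 members were on it. hsa-miR-3653 and hsa-miR-3607-3p overlap small nucleolar RNAs, hsa-miR-3648 and hsa-miR-3687 lie in ribosomal RNA repeat sequence and hsa-miR-4485 corresponds to mitochondrial ribosomal RNA. In GENCODE release 29 the gene of hsa-miR-3653 overlaps the small nucleolar RNA gene SNORD125 on the same strand. It was the only such overlap with a small RNA gene of another class among 96 members with a gene of the same name. For the other listed members this check showed no overlap. In the order Hep3B, Hep3B-C, Huh7, Huh7-C, the counts were 109, 45, 7 and 20 for hsa-miR-3653 and 54, 84, 7 and 36 for hsa-miR-3607-3p. Both had their lowest count in Huh7. The counts were 2, 27, 4 and 3 for hsa-miR-3648, 4, 22, 5 and 10 for hsa-miR-3687 and 10, 58, 2 and 2 for hsa-miR-4485, so each of these was highest in Hep3B-C. On total reads 3 of the 5 were higher in Hep3B-C than in Hep3B and 1 was lower, where 61.2% and 4.17% of all miRNAs were. In Huh7-C 2 of the 5 were higher than in Huh7, where 6.12% of all miRNAs were. With 5 names these counts are a description only. The 4 names of the list that were no members had 0 to 8 counts.

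The members sat in other genes more often than not. Of the 92 members with a RefSeq position, 50 lay in an intron and 16 in an exon of another gene on the same strand, and 26 in no other gene on that strand. A protein-coding gene held 61 of them. For the 9 members with more than 1 locus, only the first listed locus entered these counts. The whole mature sequence occurred in a spliced transcript of another gene for 16 of the 92 (17.4%), the same 16 that lay in an exon. Exons make up spliced transcripts, so both counts state the same fact. Among the 553 late-numbered names under 10 counts that had a sequence, 63 (11.4%) occurred whole in such a transcript. These 16 include hsa-miR-3654, found in transcripts of the translation elongation factor gene EEF1G, with 89, 55, 10 and 20 counts, hsa-miR-4435 in CYTOR and hsa-miR-4745-5p in a retained-intron transcript of PTBP1. For them, reads of the miRNA and of a fragment of that transcript cannot be told apart in these counts.

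The base composition of the members was that of the late-numbered names in general, with a median GC content of 52.5% over 92 members and 52.6% over the 553 names under 10 counts. The first base was U in 51.1% of members and in 32.4% of the names under 10 counts. A U at the 5′ end is typical of strands loaded into Argonaute proteins. Members ranged from 18 to 25 bases with a median of 22. They carried 89 different seeds, and 23 of the 92 shared a seed with another RefSeq miRNA. The seed of hsa-miR-4465 (0, 0, 8 and 11 counts) is that of the hsa-miR-26 family, and the seed of hsa-miR-3131 is shared with hsa-miR-611. None of the 10 most abundant members with a sequence shared a seed with another member.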

How the data were processed

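Small RNA libraries of Hep3B, Hep3B-C, Huh7 and Huh7-C were sequenced by the authors on an Illumina Genome Analyzer II. The authors aligned reads of at least 18 nt with SOAP, on NCBI Build 36.1, once contaminants and redundancy had been dealt with. Reads of other annotated RNA classes, such as ribosomal and transfer RNA, were taken out before miRNA names were assigned from miRBase release 17. The deposited values are raw counts per miRNA, with no normalization. The handling of reads that match several names is not given in the sources used here. The step that set aside other RNA classes also limits the counts of members that overlap them.

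From these counts, TPM was computed with the total reads given by the study as library sizes. A log2 fold-change was given with its 95% counting interval (Clopper-Pearson, conditional on the sum of the pair). A count of 0 was set to 3 counts, which makes the fold a bound that leaves out counting error. No fold was given where both counts were 3 or fewer. A miRNA was called past 2-fold with the interval off 0. With 1 library per condition this compares libraries and not conditions, so no p-value was given for a pair. Both lines were also fitted by the quasi-likelihood test of edgeR 4.0.16 with TMM, line as a block and miRNAs with 10 counts in at least 2 libraries, with Benjamini-Hochberg adjustment over all of them. Alternatives were other library sizes, the Poisson rule of the study (adjusted p of 0.01), the exact test of edgeR at an assumed biological coefficient of variation of 0.4, other count minimums, DESeq2 1.42.0, no block and leaving out each library.

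Named members were the 10 with the highest mean TPM, the 4 called members with the largest and the 4 with the smallest log2 fold-change of each comparison among those with over 3 counts in both libraries, members called alike in both stem cell pairs, the 4 highest of those at 0 in 1 library of a pair, opposite-strand members, and members with equal counts. Members called under all 4 scalings, and those at or near 0 in both cultures of a line, were named after their values were seen. The members and lists were chosen with earlier results of these data known.

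Mature sequences and positions were matched by exact name to RefSeq (GRCh38.p14), and host genes and transcripts came from GENCODE release 29 on GRCh38. The files hold no coordinates, and none were converted. The pair comparison and the fit over both lines were checked on simulated counts first. Python 3.11.15, numpy 2.4.6, scipy 1.17.1, pandas 2.3.3 and R 4.3.3 were used.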

Additional observations from a re-analysis of the deposited data

Results flagged for a closer look

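For 7 members the HCSC was higher than the HCC culture in one line and lower in the other, on total reads. Of the 84 members with both folds, 7.14% were higher in Hep3B-C and lower in Huh7-C, and 1.19% the reverse. Over all 430 miRNAs with both folds these shares were 13.3% and 0.233%. The reversals therefore do not set the members apart from miRNAs in general. Since each condition has 1 library, no test was made of the difference between lines, so it was not tested. The log2 fold-changes for Hep3B-C over Hep3B and for Huh7-C over Huh7 were 2.74 and −2.71 for hsa-miR-3145-3p, 1.71 and −2.39 for hsa-miR-3163, and 1.27 and −3.71 for hsa-miR-3909. They were 1.47 and −1.19 for hsa-miR-3934 and 2.29 and −1.68 for hsa-miR-4511, which passed the count minimum only through Huh7. For hsa-miR-4521 they were 3.18 (a bound, from 0 counts in Hep3B) and −3.44. hsa-miR-3653 went the other way, at −1.16 and 1.5. With total reads the median of all miRNAs was 1.41 for Hep3B-C over Hep3B and −0.66 for Huh7-C over Huh7. Under all 4 scalings both calls held for hsa-miR-4521 and hsa-miR-3653.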

How the results depend on the processing

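Counts of called members moved with the library size and with the call rule. In the Hep3B pair, against 67 higher and 3 lower on total reads, there were 8 and 13 with total miRNA counts, 18 and 9 with TMM and 25 and 7 with DESeq2 size factors. Against 12 higher and 12 lower for Huh7-C over Huh7, there were 22 and 6 with total miRNA counts and 25 and 5 with DESeq2 size factors, and 7 were lower with TMM. With the whole counting interval past 2-fold, 39 were higher and 1 lower in the Hep3B pair, 7 higher and 2 lower in the Huh7 pair, and 41 of 67 remained in number between Huh7-C and Hep3B-C. With the edgeR exact test at a coefficient of variation of 0.4, 3 were higher and 0 lower in the Hep3B pair, 4 higher and 0 lower in the Huh7 pair, 20 were called between Huh7 and Hep3B and 17 between Huh7-C and Hep3B-C. With a minimum of 30 counts, which leaves fewer members, 44 were higher in the Hep3B pair, 6 lower in the Huh7 pair, and 40 and 44 were called between the lines. For the whole-interval rule and the minimum of 30 counts, the share over all miRNAs is not given. The counts under those settings therefore do not set the members apart from miRNAs in general.

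In the Hep3B pair the direction of these members turned when libraries were scaled to their total miRNA counts, to a log2 fold-change of −0.30 for hsa-miR-3934, −0.12 for hsa-miR-3928, −0.55 for hsa-miR-4746-5p, −0.22 for hsa-miR-3131, −0.00097 for hsa-miR-3662, −0.06 for hsa-miR-3163, −0.10 for hsa-miR-3174, −0.64 for hsa-miR-3189-3p, −0.49 for hsa-miR-3909 and −0.45 for hsa-miR-4449. With TMM it was −0.20 for hsa-miR-4746-5p, −0.29 for hsa-miR-3189-3p, −0.14 for hsa-miR-3909 and −0.10 for hsa-miR-4449, and with DESeq2 size factors −0.06 for hsa-miR-3189-3p. A change of library size moves every fold of a comparison by the same amount.

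Without the most abundant member the share of miRNA counts was 0.153% and 0.133% in Hep3B and Hep3B-C, and 0.0624% and 0.109% in Huh7 and Huh7-C. With no count minimum it was 0.183%, 0.164%, 0.0702% and 0.119%, and as a share of total reads 0.0178%, 0.0553%, 0.0352% and 0.0429%. On total reads the lowest share was thus in Hep3B and not in Huh7.

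The fit over both lines called 0 members by edgeR with the line as a replicate block, 0 without the block, 0 by DESeq2, and 0 when each library was left out without the block. The labels give no replicate numbers beyond 1 library per condition, so the block is the cell line.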
